A study of Mus musculus with 8 samples.

Results

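The genes described here carry calcium across the intestinal epithelium or serve vitamin D signalling. They were S100g, Trpv6, Atp2b1, Vdr, Rxra, Cyp24a1, Cyp27b1 and Casr, taken by symbol from a table of 18262 genes. Of these 8 genes, 7 had a row of that name, and Cyp24a1 was not analysed here. The set was put together with results of this table known, S100g and Trpv6 having been among its largest increases. The difference between the groups in these genes is therefore given as a description: calls of the fit are stated with no p-value, and nothing rests on them. Expression was measured by RNA sequencing in 8 libraries of mouse colon, all labelled WT for genotype. The DSS + GAA group holds 4 libraries from animals given both dextran sulfate sodium (DSS), which damages the lining of the colon and causes colitis, and GAA (ganoderic acid A, a triterpenoid of Ganoderma fungi) at 20 mg/kg. The DSS group holds 4 libraries from animals with DSS colitis and no GAA. Replicates are numbered 1, 2, 4 and 5 in each group. The treatment labels of the 4 GAA libraries read 20, 21, 22 and 23 mg/kg, while the titles and the protocol give 20 mg/kg for all of them, so they were kept as 1 group. Strain, age and sex are not given in the sources used here, and colon without colitis was not analysed here.

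Absorptive cells of the intestine take up calcium through TRPV6, a channel of the apical membrane. Inside the cell the ion is bound by calbindin-D9k, the product of S100g, and it leaves on the basolateral side through calcium pumps such as PMCA1, the product of Atp2b1. In the gut this route is controlled by the vitamin D receptor (Vdr), which binds the active hormone calcitriol and acts on DNA together with the retinoid X receptor (Rxra). Cyp27b1 makes calcitriol and Cyp24a1 breaks it down, and Casr, the calcium-sensing receptor, reports extracellular calcium. S100g and Trpv6 are textbook vitamin D receptor targets of mouse intestine.

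Values are in TPM, transcript abundances that are scaled to transcript length and to the library's total, so levels can be set side by side between genes. Because TPM retains no read totals, how deeply each library was sequenced is unknown. S100g is annotated in GENCODE vM21 (GRCm38, mm10) on chromosome X, 162961992 to 162964599, minus strand, with 480 exon bases, inside the span of Ctps2 on the other strand but sharing 0 exon bases with it. Trpv6 lies on chromosome 6, 41620624 to 41636405, minus strand, with 3936 exon bases, and Vdr on chromosome 15, 97854425 to 97910630, minus strand, with 5650 exon bases. Atp2b1 (chromosome 10, 98914406 to 99026143, plus strand), Rxra (chromosome 2, 27676440 to 27762957, plus strand), Cyp27b1 (chromosome 10, 127048250 to 127053006, plus strand) and Casr (chromosome 16, 36493696 to 36562141, minus strand) shared 0 exon bases with other annotated genes. A given TPM of the short S100g transcript rests on fewer reads than the same TPM of the longer transcripts.

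The start regions of S100g, Trpv6 and Vdr are shown because these 3 genes were higher in DSS + GAA colon. Each run holds the 250 bases before and the 50 bases from the annotated start on, 5′ to 3′ on the gene's own strand, from RefSeq on GRCm38.p6. Capitals mark the nuclear receptor hexamer AGGTCA and the TATA box TATAAA, each searched on both strands.
S100g (chrX:162964550-162964849, minus strand): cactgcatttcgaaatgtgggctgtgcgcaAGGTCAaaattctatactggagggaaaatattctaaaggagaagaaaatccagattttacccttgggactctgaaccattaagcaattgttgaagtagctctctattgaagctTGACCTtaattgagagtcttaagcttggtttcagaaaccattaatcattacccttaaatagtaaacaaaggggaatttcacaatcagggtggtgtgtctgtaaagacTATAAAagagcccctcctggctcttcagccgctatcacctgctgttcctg
Trpv6 (chr6:41636356-41636655, minus strand): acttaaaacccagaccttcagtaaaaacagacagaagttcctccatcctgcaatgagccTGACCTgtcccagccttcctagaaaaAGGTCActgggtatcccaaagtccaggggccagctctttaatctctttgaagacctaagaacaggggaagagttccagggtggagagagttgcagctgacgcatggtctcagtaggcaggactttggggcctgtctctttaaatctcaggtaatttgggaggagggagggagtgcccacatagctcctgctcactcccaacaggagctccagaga
Vdr (chr15:97908247-97908546, minus strand): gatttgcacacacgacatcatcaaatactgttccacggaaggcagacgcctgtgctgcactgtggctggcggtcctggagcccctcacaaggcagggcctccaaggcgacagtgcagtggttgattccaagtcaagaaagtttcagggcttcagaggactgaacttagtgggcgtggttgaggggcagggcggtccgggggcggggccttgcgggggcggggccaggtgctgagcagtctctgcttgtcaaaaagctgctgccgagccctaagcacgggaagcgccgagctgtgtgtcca
The S100g window holds AGGTCA beginning 220 bases before the start and its complement beginning 107 bases before it, with TATAAA at the annotated start itself. The Trpv6 window holds the complement of AGGTCA beginning 191 bases and AGGTCA beginning 165 bases before the start. The Vdr window holds neither motif. AGGTCA is not particular to these genes: 1 of the 2 windows of Rxra, which was not called, also holds 2 matches, beginning 87 and 48 bases before its start. Of 32851 windows of this length in mouse, 16.3% hold at least 1 AGGTCA, 1.81% hold 2 or more and 13.6% hold TATAAA. A direct repeat of AGGTCA with a spacer of 3 bases, the form that the vitamin D receptor pair is known to bind, was searched on both strands with at most 1 mismatch per hexamer, so its matches can overlap those of AGGTCA. It was found in 1.76% of all windows and in 0 of the 9 windows of the 7 genes, and the CDX motif CATAAA in 11.9% and likewise in 0 of the 9. Absence from these windows says nothing of sites elsewhere at these genes.

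S100g and Trpv6 were many times higher in DSS + GAA colon, Vdr was 2.51 times higher, and Atp2b1 and Rxra were not called. Genes with at least 1 TPM in at least 4 of the 8 libraries, 14217 in all, were fitted with limma on log2(TPM + 1), and an adjusted p under 0.05 counts as a call. The fit called 3 of the 5 genes that passed this filter higher (S100g, Trpv6 and Vdr), against 5.96% of all tested genes higher and 34.1% in either direction. It called 0 of the 5 lower, against 28.2% of all tested genes; at an unadjusted p under 0.05 the count was 1 (Atp2b1). These counts describe genes chosen on the same contrast. Cyp27b1 and Casr lay under the filter and were not tested.

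S100g, the calcium buffer, was at 1.67, 22.7, 40.6 and 66.1 TPM in DSS + GAA replicates 1, 2, 4 and 5, against 0.364, 0.693, 0.358 and 0.696 TPM in DSS replicates 1, 2, 4 and 5. Every DSS + GAA library lay above every DSS library, as in 5.31% of all tested genes, but replicate 1 of DSS + GAA stood close to the DSS libraries and far below the other three of its group. The mean was 32.8 ± 27.3 TPM in DSS + GAA and 0.528 ± 0.193 TPM in DSS (SD, n = 4 each). The log2 fold change was 3.76 ± 0.84 (SE), the third highest of all tested genes. Without DSS + GAA replicate 1 it was 4.74 ± 0.31, at a mean of 43.2 ± 21.8 TPM (SD, n = 3). All 4 DSS libraries were under 1 TPM, so S100g passed the filter through the DSS + GAA group alone and had to differ once it was tested. Adding 1 TPM before the logarithm understates such a low gene. The authors' deposited table lists log2 fold changes of 5.95 for S100g and 3.68 for Trpv6. These lie close to the log2 of the ratio of mean TPM (62.1 for S100g and 12.8 for Trpv6). The fit compares means of logarithms instead, so its values are on an unlike measure.

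Trpv6, the apical entry channel, was at 3.58, 18.7, 35.6 and 20.0 TPM in DSS + GAA replicates 1, 2, 4 and 5, against 0.597, 0.427, 1.53 and 3.51 TPM in DSS replicates 1, 2, 4 and 5. The groups did not overlap, though the lowest DSS + GAA library (replicate 1) and the highest DSS library (replicate 5) were nearly level. The mean was 19.5 ± 13.1 TPM in DSS + GAA and 1.52 ± 1.42 TPM in DSS (SD, n = 4 each), with a log2 fold change of 2.84 ± 0.61. Leaving out DSS + GAA replicate 1 gave 3.45 ± 0.40. S100g exceeded Trpv6 in 3 of 4 DSS + GAA libraries and in 1 of 4 DSS libraries.

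Atp2b1, the basolateral pump, did not share this pattern. It was at 84.0, 72.0, 64.3 and 67.0 TPM in DSS + GAA replicates 1, 2, 4 and 5, against 90.2, 80.0, 91.7 and 105 TPM in DSS replicates 1, 2, 4 and 5. Only DSS + GAA replicate 1 reached into the DSS range. The means were 71.8 ± 8.72 TPM in DSS + GAA and 91.8 ± 10.4 TPM in DSS (SD, n = 4 each), a log2 fold change of -0.35 ± 0.13. Over all tested genes the log2 fold change had a median of -0.25, and relative to that Atp2b1 stood at -0.10. Its value was -0.06 after trimmed mean scaling, -0.25 after quantile normalization and -0.05 after median centring of the libraries. The fit called Atp2b1 lower with array quality weights (-0.39), and on removal of replicate 2 of DSS (-0.41) or replicate 1 of DSS + GAA (-0.43).

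**Figure D1:**
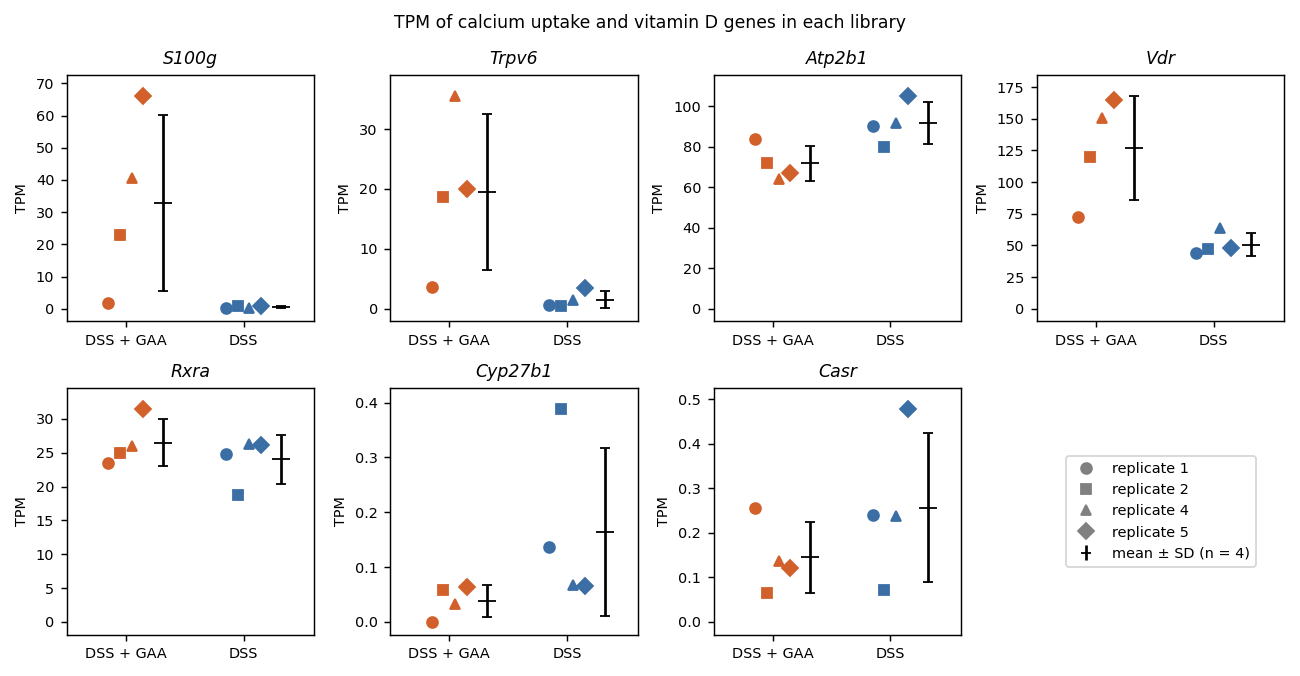
TPM of the 7 genes in each library (y axis, linear scale, its range differing between panels), with DSS + GAA on the left and DSS on the right of each panel; symbols are replicate numbers and bars are mean ± SD (n = 4). S100g, Trpv6 and Vdr have every DSS + GAA library above the DSS libraries, and DSS + GAA replicate 1 is the lowest of its group in all 3 (1.67, 3.58 and 72.4 TPM).

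Vdr, the calcitriol receptor, was at 72.4, 120, 151 and 165 TPM in DSS + GAA replicates 1, 2, 4 and 5, against 43.6, 46.9, 63.8 and 48.0 TPM in DSS replicates 1, 2, 4 and 5. The groups did not overlap, and DSS + GAA replicate 1 was again the lowest of its group. The means were 127 ± 41.0 TPM in DSS + GAA and 50.6 ± 8.99 TPM in DSS (SD, n = 4 each), a log2 fold change of 1.26 ± 0.25 and 1.51 relative to the median of all genes. The value lay between 1.11 and 1.51 when each library was left out in turn.

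Rxra, the partner of Vdr, was at 23.5, 24.9, 26.1 and 31.5 TPM in DSS + GAA replicates 1, 2, 4 and 5, against 24.8, 18.7, 26.4 and 26.1 TPM in DSS replicates 1, 2, 4 and 5. The groups overlapped, with the highest library in DSS + GAA (replicate 5) and the lowest in DSS (replicate 2). The log2 fold change was 0.14 ± 0.15, and 0.39 relative to the median of all genes. The fit called Rxra higher after trimmed mean scaling (0.42) and after median centring (0.44), so its place depends on the scaling between libraries.

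The remaining genes were near the bottom of the table. Cyp27b1, the enzyme that makes calcitriol, was listed at 0 in DSS + GAA replicate 1 and at 0.059, 0.032 and 0.064 TPM in replicates 2, 4 and 5, against 0.136, 0.388, 0.067 and 0.065 TPM in DSS replicates 1, 2, 4 and 5. The 4 DSS + GAA values lay below the 4 DSS values, as in 27.6% of all tested genes, but the gap between 0.064 and 0.065 TPM is negligible. Casr, the calcium-sensing receptor, was at 0.256, 0.065, 0.138 and 0.122 TPM in DSS + GAA replicates 1, 2, 4 and 5, against 0.240, 0.071, 0.237 and 0.478 TPM in DSS replicates 1, 2, 4 and 5, and the groups overlapped. With depth unknown, no difference can be read from values this low.

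The order of the levels differed between the groups. In DSS + GAA colon the mean TPM ran from Vdr (127) through Atp2b1 (71.8), S100g (32.8), Rxra (26.5) and Trpv6 (19.5) to Casr (0.145) and Cyp27b1 (0.0388). In DSS colon it ran from Atp2b1 (91.8) through Vdr (50.6), Rxra (24.0), Trpv6 (1.52), S100g (0.528) and Casr (0.257) to Cyp27b1 (0.164). Vdr exceeded Atp2b1 in 3 of 4 DSS + GAA libraries and in 0 of 4 DSS libraries. In DSS + GAA the ranges of all neighbours from Vdr down to Trpv6 overlapped, and those below did not. In DSS the overlapping neighbours were Trpv6 and S100g, S100g and Casr, and Casr and Cyp27b1. Mean S100g lay above 76.9% of all rows in DSS + GAA and above 17.2% in DSS, and mean Vdr above 93.1% in DSS + GAA and 82.0% in DSS.

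Epithelial marker RNA was itself a larger share of the DSS + GAA libraries. The 10 epithelial markers summed to 16283 to 17664 TPM in DSS + GAA and 10514 to 13335 TPM in DSS. Among them Cldn4 went the other way, at 54.1 ± 30.8 TPM in DSS + GAA and 99.7 ± 22.9 TPM in DSS, and was not called. Krt18 was level (555 TPM in DSS + GAA and 550 TPM in DSS), and Epcam was higher but not called. Of the 10 markers, 4 passed as higher (Cdh1, Krt8, Vil1 and Cldn3), against 5.96% of all tested genes. In bulk tissue, more cells of a type and more RNA per cell cannot be told apart. Per 1000 TPM of these markers, a scale chosen after the data had been seen, S100g averaged 1.96 ± 1.69 in DSS + GAA and 0.0446 ± 0.0163 in DSS (SD, n = 4 each), a ratio of 44.1 where TPM gave 62.1. On that scale Trpv6 averaged 1.15 ± 0.779 in DSS + GAA and 0.127 ± 0.120 in DSS, a ratio of 9.09 where TPM gave 12.8, and the groups overlapped. Vdr averaged 7.53 ± 2.59 in DSS + GAA and 4.23 ± 0.388 in DSS on that scale, a ratio of 1.78, and also overlapped. Rxra stood at a ratio of 0.772 where TPM gave 1.103, and Atp2b1 at 0.546 where TPM gave 0.7828. On that scale every DSS + GAA library lay under the DSS libraries for Atp2b1. The scale divides RNA of the whole tissue by epithelial markers, whose sum was itself higher in DSS + GAA. It does not give levels within the epithelium, and whether Rxra or Atp2b1 fell there was not tested.

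Other marker lists also held genes that passed, beside 5.96% of all tested genes higher and 28.2% lower. Their part in the results was not tested. The colonic markers Car1, Slc26a3, Aqp8 and Muc2 were present in every library, as the tissue label requires. The 10 colonic epithelial markers summed to 8046 to 14269 TPM in DSS + GAA and 5964 to 11632 TPM in DSS (2 higher, 1 lower). Markers of other cell types summed, in DSS + GAA and DSS, to 353 to 1272 and 1475 to 4428 TPM for 7 fibroblast genes (3 lower), and to 48.9 to 148 and 229 to 312 TPM for 8 genes of enteric neurons and glia (8 lower). The sums were 137 to 377 and 2073 to 6402 TPM for 6 neutrophil genes (5 lower), 93.8 to 366 and 267 to 321 TPM for 6 macrophage genes (1 lower), and 35.4 to 87.0 and 23.3 to 36.1 TPM for 7 T and B cell genes (3 higher). Smooth muscle markers summed to 1505 to 3691 TPM in DSS + GAA and 1867 to 5155 TPM in DSS, with 0 of 6 called in either direction by limma and 0 at an unadjusted p under 0.05. DSS + GAA replicate 1, the library with the least S100g, Trpv6 and Vdr of its group, had the highest sums of fibroblast, smooth muscle, neural, macrophage, neutrophil and lymphocyte markers in that group. It also had the group's highest colonic epithelial sum (14269 TPM), and its epithelial sum (17021 TPM) lay within the group's range. Its sums of small intestinal markers (231 TPM) and posterior Hox genes (290 TPM) were the lowest of the group.

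**Figure D2:**
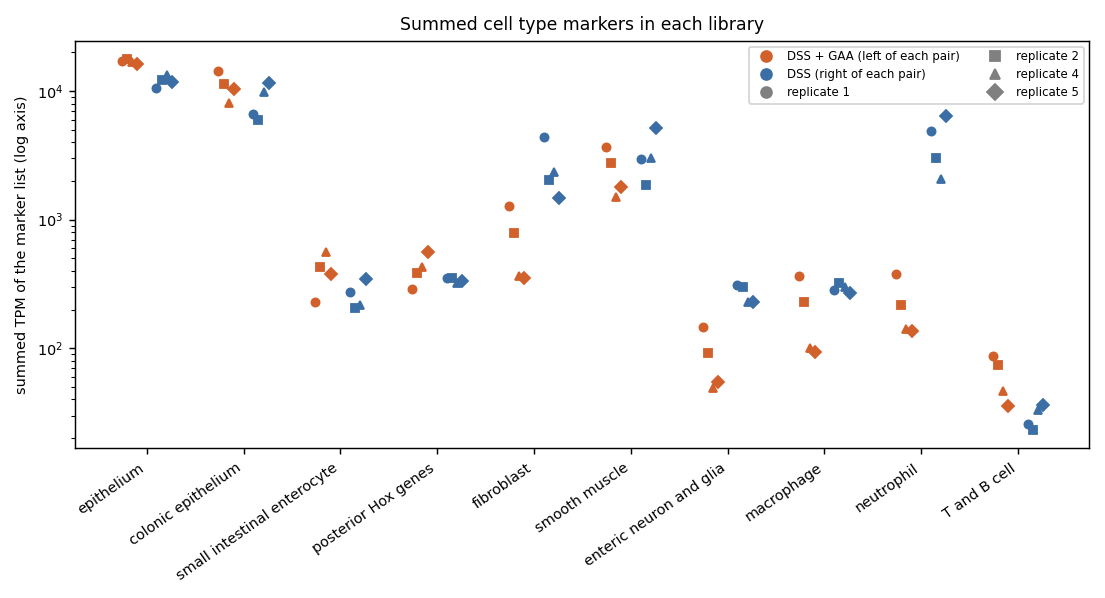
Summed TPM of 10 marker lists (y axis, log scale) in each library, DSS + GAA on the left and DSS on the right of each pair, with symbols for replicate numbers. Epithelial sums lie higher in all 4 DSS + GAA libraries (16283 to 17664 TPM) than in the DSS libraries (10514 to 13335 TPM), and fibroblast sums lower (353 to 1272 against 1475 to 4428 TPM).

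S100g and Trpv6 are also strongly expressed in small intestine, so markers of its enterocytes and of position along the gut were read in each library. Lct, Sis, Slc2a2 and Gata4, which define jejunal enterocytes, reached at most 0.108, 0.087, 0.030 and 0.088 TPM in any of the 8 libraries. Fabp1 reached at most 0.947 TPM. Other genes of the same list were present in every library, with Slc5a1 at 46.9 to 104 TPM, Fabp2 at 24.4 to 85.1 TPM and Mttp at 4.85 to 8.18 TPM. Slc5a1 and Mttp were not called in either direction. The 14 small intestinal markers summed to 231 to 563 TPM in DSS + GAA and 204 to 347 TPM in DSS, and 6 of them were tested. Fabp6, an ileal bile acid-binding protein, was at 95.8, 241, 355 and 155 TPM in DSS + GAA replicates 1, 2, 4 and 5, against 12.9, 6.42, 12.9 and 8.54 TPM in DSS replicates 1, 2, 4 and 5, and passed as higher. Its rise, 4.13 ± 0.38 on the log2 scale, stands beside those of S100g and Trpv6, and its part in them was not tested. Fabp2, a fatty acid-binding protein, also passed as higher, while Slc10a2, the ileal bile acid transporter, passed as lower, at 24.6 ± 10.5 TPM in DSS + GAA and 135 ± 57.7 TPM in DSS (SD, n = 4 each). Of the 9 posterior Hox genes, which mark position along the hindgut, Hoxa13 passed as higher and Hoxd9, Hoxd10 and Hoxd11 as lower, and their sums were 290 to 562 TPM in DSS + GAA and 323 to 354 TPM in DSS.

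The wider pathway showed changes in both directions, with 2 claudin genes counted on 2 of the 6 lists. Of 76 other genes of calcium transport and vitamin D signalling, 74 had a row and 59 were tested; 8 rose and 17 fell in DSS + GAA (limma adjusted p under 0.05), against 5.96% of all tested genes higher and 28.2% lower. The share of them that fell was near that of all tested genes. Their median log2 fold change was -0.22, beside -0.25 for all tested genes. The shares of 5.96% and 28.2% also stand beside the counts of each list below. The lists were chosen with earlier results of these data known, so these comparisons are a description. The balance depended on scaling. After trimmed mean scaling or median centring, 15 of these genes were higher and 5 lower, and after quantile normalization 10 were higher and 9 lower. The median of all genes then moved up by 0.26, 0.30 and 0.27 on the log2 scale. Under trimmed mean scaling 45.4% of all calls were lower, under median centring 37.7% and under quantile normalization 48.8%, where TPM as deposited gave 82.5%. In all, 8 of the 25 genes (3 higher, 5 lower) kept their call in all of the 18 alternatives in which they were tested.

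Among 16 tested genes of calcium entry, buffering and extrusion, 2 rose, among them Calm3, 3 fell (Calb2, Slc8a1 and Trpm7) and 11 did not pass. Calb2, calretinin, a calcium buffer of enteric neurons, averaged 23.3 ± 9.80 TPM in DSS + GAA and 53.3 ± 6.70 TPM in DSS (SD, n = 4 each; log2 fold change -1.24 ± 0.25, limma adjusted p = 0.00869), and the 8 neural markers fell with it. Slc8a1, a sodium-calcium exchanger, averaged 5.33 ± 2.43 TPM in DSS + GAA and 9.81 ± 1.68 TPM in DSS (limma adjusted p = 0.0359). Trpm7, a channel for divalent cations, averaged 25.6 ± 2.59 TPM in DSS + GAA and 39.3 ± 5.35 TPM in DSS (-0.60 ± 0.13, limma adjusted p = 0.0111), and missed the threshold under trimmed mean scaling (-0.32, adjusted p = 0.0678) and median centring (-0.30, adjusted p = 0.0841). Calm3, a calmodulin gene, averaged 353 ± 6.81 TPM in DSS + GAA and 267 ± 40.4 TPM in DSS (0.41 ± 0.13, limma adjusted p = 0.0349). Calm3 and Slc8a1 each lost their call when any 1 of 6 libraries was left out. Over the 18 alternatives the limma adjusted p reached 0.0967 for Calm3 and 0.195 for Slc8a1. Trpv5, the renal relative of Trpv6, was at 0.206 TPM or less in every library.

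The paracellular calcium route was uneven between DSS + GAA libraries. Cldn2, a pore-forming claudin that lets calcium pass between cells, was at 0.870, 13.2, 42.9 and 35.6 TPM in DSS + GAA replicates 1, 2, 4 and 5, against 8.34, 4.68, 12.0 and 2.66 TPM in DSS replicates 1, 2, 4 and 5. Cldn15, another pore-forming claudin, was at 4.16, 17.0, 24.9 and 31.7 TPM in DSS + GAA and at 8.42, 5.76, 13.2 and 4.29 TPM in DSS, in the same order of replicates. For both genes DSS + GAA replicate 1 lay below every DSS library while the other three lay above all of them. Neither passed over all 8 libraries (limma adjusted p = 0.407 for Cldn2 and 0.180 for Cldn15). Without DSS + GAA replicate 1 both were called higher, Cldn2 by 2.00 ± 0.49 (limma adjusted p = 0.0119) and Cldn15 by 1.58 ± 0.34 (0.00648) on the log2 scale. Trpm6, an epithelial magnesium channel, likewise passed only without that library (limma adjusted p = 0.401 over all libraries and 0.0488 without it) among the 18 alternatives. Slc34a2, an intestinal phosphate carrier, had a limma adjusted p of 0.0540 over all libraries and 0.00353 without it. With all 8 libraries Slc34a2 was also called higher under each of the 3 scalings, array quality weights and the replicate block. Pdia3 was at 0.0656 over all libraries and 0.0433 without it, and with all 8 libraries it was also called higher under trimmed mean scaling and median centring. These 5 genes were named after their values were seen.

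Among genes that make, activate or take up vitamin D, 4 were tested; Dhcr7 rose, and Cyp27a1 and Dab2 fell. Dhcr7, which draws the vitamin's precursor into cholesterol, averaged 33.4 ± 9.05 TPM in DSS + GAA and 18.9 ± 4.91 TPM in DSS (SD, n = 4 each; log2 fold change 0.78 ± 0.23, limma adjusted p = 0.0319). Cyp27a1, a mitochondrial sterol hydroxylase, averaged 40.6 ± 4.23 TPM in DSS + GAA and 60.4 ± 14.0 TPM in DSS (-0.54 ± 0.18, limma adjusted p = 0.0445). Dab2, an endocytic adaptor of the megalin receptor, averaged 9.17 ± 5.45 TPM in DSS + GAA and 38.5 ± 12.3 TPM in DSS (-2.05 ± 0.38, limma adjusted p = 0.00712). Megalin itself (Lrp2) was at 0.021 TPM or less in every library. Cyp2r1, which makes the circulating form of the vitamin, did not pass (1.73 ± 0.308 TPM in DSS + GAA and 1.93 ± 0.590 TPM in DSS). Dhcr7 and Cyp27a1 each lost their call when 1 of 6 libraries was removed (replicates 1, 2 and 5 of DSS and 2, 4 and 5 of DSS + GAA), with limma adjusted p up to 0.0873 for Dhcr7 and 0.394 for Cyp27a1 over the alternatives.

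Of 12 tested receptor partners and coregulators, 3 fell, beside 28.2% of all tested genes called lower. Ncoa2 and Crebbp were among the 3, and 9 did not pass. By limma 0 rose, and 1 was higher at an unadjusted p under 0.05. Ncoa2, a coactivator of nuclear receptors, averaged 15.7 ± 0.536 TPM in DSS + GAA and 22.3 ± 2.50 TPM in DSS (SD, n = 4 each; log2 fold change -0.48 ± 0.12, limma adjusted p = 0.0151). Crebbp, a histone acetyltransferase, fell by 0.41 on the log2 scale (limma adjusted p = 0.0216). Both missed the threshold under trimmed mean scaling, quantile normalization and median centring, with adjusted p-values up to 0.258 for Ncoa2 and 0.583 for Crebbp. Without DSS replicate 1 both also missed it (0.0515 for Ncoa2 and 0.0689 for Crebbp), and likewise without DSS + GAA replicate 2 (0.0524 for Ncoa2 and 0.0602 for Crebbp). Crebbp also missed it under the replicate block (0.0661) and without DSS + GAA replicate 5 (0.0510). Rxrb, a second retinoid X receptor, did not pass (13.5 ± 0.660 TPM in DSS + GAA and 16.1 ± 2.65 TPM in DSS), and Pdia3, described as a membrane binding protein of calcitriol, was among the 9.

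Other genes reported as vitamin D receptor targets did not move as a block. Of 11 tested, Abcb1a and Abcc3 rose, Igfbp3, Spp1, Txnip and Thbd fell, and 5 did not pass. The efflux pump gene Abcb1a averaged 100.3 ± 5.07 TPM in DSS + GAA and 60.1 ± 19.3 TPM in DSS (SD, n = 4 each; log2 fold change 0.78 ± 0.21, limma adjusted p = 0.0215), and missed the threshold without DSS replicate 1 (0.0698). Abcc3, an organic anion exporter, averaged 71.5 ± 27.3 TPM in DSS + GAA and 36.3 ± 8.33 TPM in DSS (0.90 ± 0.27, limma adjusted p = 0.0328). Igfbp3, an insulin-like growth factor carrier, averaged 13.6 ± 4.38 TPM in DSS + GAA and 84.4 ± 45.2 TPM in DSS (-2.43 ± 0.39, limma adjusted p = 0.00554). Spp1, osteopontin, averaged 1.30 ± 0.664 TPM in DSS + GAA and 21.5 ± 18.0 TPM in DSS (-2.88 ± 0.62, limma adjusted p = 0.0104). Txnip, an inhibitor of thioredoxin, and Thbd, thrombomodulin, fell by 0.97 and 1.42 on the log2 scale (limma adjusted p = 0.0137 and 0.0322). Abcc3 and Thbd each lost their call when any 1 of 6 libraries was left out, with limma adjusted p up to 0.0872 and 0.0980. They kept it without DSS + GAA replicate 1 and without DSS replicate 4 (Abcc3) or 5 (Thbd). Thbd also missed it under all 3 scalings (0.0802 to 0.0884). Txnip missed it under trimmed mean scaling and median centring (0.0762 and 0.0862). Igfbp3, Spp1 and Thbd are expressed by stromal, myeloid and endothelial cells. Beside them, 3 of 7 fibroblast, 1 of 6 macrophage and 5 of 6 neutrophil markers fell, against 28.2% of all tested genes. Endothelial markers were not examined here, and a part of cell composition in these falls was not tested.

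**Figure D3:**
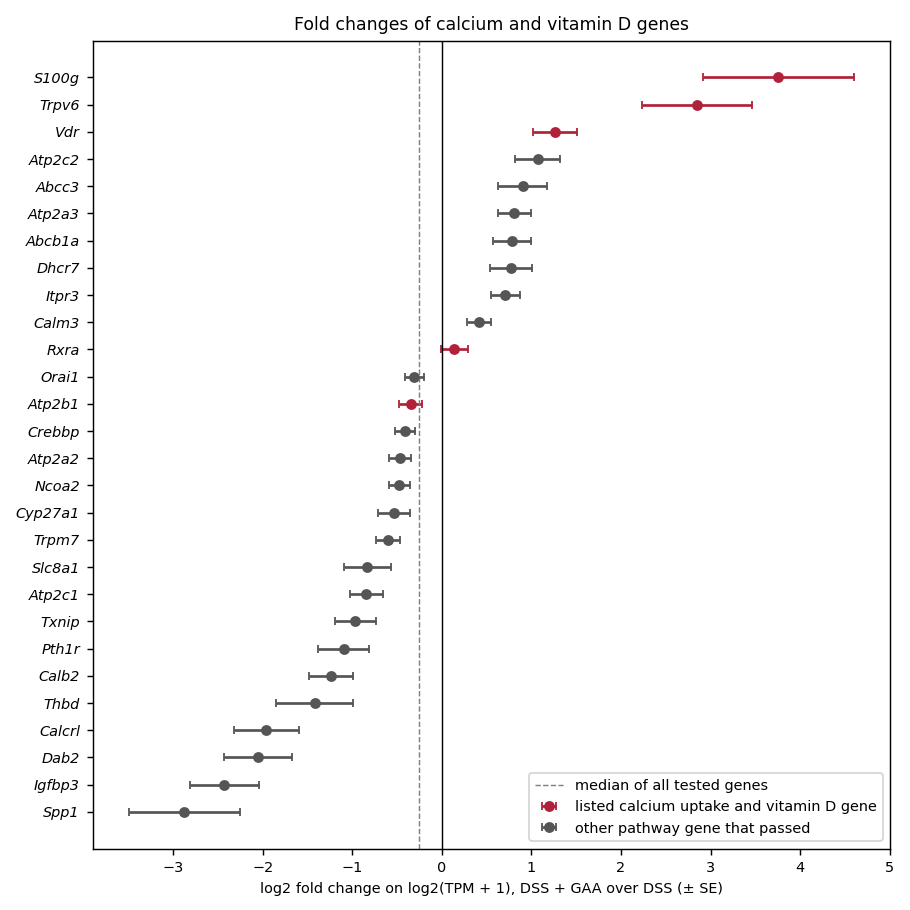
Log2 fold change on log2(TPM + 1), DSS + GAA over DSS (x axis), with SE bars, of the 5 tested calcium uptake and vitamin D genes and of the other pathway genes reported here that passed; the dashed line is the median of all tested genes (-0.25). S100g (3.76), Trpv6 (2.84) and Vdr (1.26) stand above the other genes that rose, while Atp2b1 (-0.35) stands near the dashed line and Rxra (0.14) between it and them.

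Among 4 tested hormone and receptor genes, Calcrl and Pth1r fell. Calcrl, part of the receptors for calcitonin gene-related peptide and adrenomedullin, averaged 14.9 ± 9.29 TPM in DSS + GAA and 54.3 ± 11.6 TPM in DSS (SD, n = 4 each; log2 fold change -1.96 ± 0.37, limma adjusted p = 0.00712). Pth1r, the parathyroid hormone receptor, was at 3.13, 2.11, 0.808 and 0.816 TPM in DSS + GAA replicates 1, 2, 4 and 5, against 5.22, 3.33, 4.56 and 4.91 TPM in DSS replicates 1, 2, 4 and 5 (fell by 1.097 on the log2 scale, limma adjusted p = 0.0190; 0.0624 without DSS replicate 1). It also missed the threshold under trimmed mean scaling (0.0542), quantile normalization (0.0548) and median centring (0.0736). By limma 0 of the 4 rose, and 0 were higher at an unadjusted p under 0.05. Fgf23, a hormone that lowers calcitriol, was under the filter, at 0.089 and 0.084 TPM in DSS + GAA replicates 1 and 2 and listed at 0 in replicates 4 and 5, against 3.27, 1.42, 1.33 and 0.322 TPM in DSS replicates 1, 2, 4 and 5. It was named after its values were seen.

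The 3 pathway genes whose rise held in all 18 alternatives were genes of calcium stores. Of 14 tested, Atp2c2, Atp2a3 and Itpr3 rose, Atp2c1, Atp2a2 and Orai1 fell, and 8 did not pass. Atp2a3, a calcium pump of the endoplasmic reticulum, was at 199, 249, 286 and 321 TPM in DSS + GAA replicates 1, 2, 4 and 5, against 129, 127, 187 and 155 TPM in DSS replicates 1, 2, 4 and 5 (log2 fold change 0.81 ± 0.18, limma adjusted p = 0.0122). Its relative Atp2a2 averaged 187 ± 12.9 TPM in DSS + GAA and 260 ± 32.2 TPM in DSS (SD, n = 4 each; -0.47 ± 0.12, limma adjusted p = 0.0210). The Golgi and secretory pathway pumps split in the same manner, with Atp2c2 at 41.1 ± 5.58 TPM in DSS + GAA and 20.1 ± 8.24 TPM in DSS (1.07 ± 0.25, limma adjusted p = 0.0140) and Atp2c1 at 43.7 ± 11.9 TPM in DSS + GAA and 77.5 ± 8.36 TPM in DSS (-0.84 ± 0.18, limma adjusted p = 0.0106). Itpr3, an inositol trisphosphate receptor, averaged 36.3 ± 7.33 TPM in DSS + GAA and 21.6 ± 2.31 TPM in DSS (0.71 ± 0.16, limma adjusted p = 0.0125). Over the alternatives the adjusted p-values of the 3 rises reached at most 0.0451, while the falls of Atp2a2 and Atp2c1 missed the threshold under trimmed mean scaling (0.234 and 0.0704) and median centring (0.276 and 0.0834). Orai1, a store-operated channel, fell by 0.31 (limma adjusted p = 0.0488) and missed the threshold when any 1 library was left out. Its log2 fold change was -0.037 after trimmed mean scaling, -0.017 after quantile normalization and -0.008 after median centring. The limma adjusted p was 0.838, 0.926 and 0.967 in the same order. Atp2a2 also missed the threshold without replicate 1 or 4 of DSS, or 2 or 5 of DSS + GAA (0.0526 to 0.0675).

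Genes with profiles most like S100g and Trpv6 were found by the root mean square difference between log2(TPM + 1) profiles over the 8 libraries, each centred on its own mean. Profiles were not scaled and the group means were not removed. Closeness therefore largely restates a like difference between the groups, on which S100g and Trpv6 were chosen, and shared regulation was not tested. Closest to S100g were Slc37a2, a sugar phosphate exchanger (0.636), Nxpe2 (0.862), Trpv6 itself (0.888), Gsdmc3, a gasdermin C gene (0.970), and Pipox, a peroxisomal oxidase (0.997). Closest to Trpv6 were Gsdmc3 (0.408), the butyrophilin-like gene Btnl1 (0.520), Pipox (0.562), the carboxylesterase gene Ces2f (0.588) and the apolipoprotein L gene Apol10a (0.646). Among all tested genes S100g ranked 36 by likeness to Trpv6, and Vdr ranked 84 for S100g and 89 for Trpv6. Rxra and Atp2b1 ranked 2698 and 9441 for S100g. Slc37a2 was at 20.5, 65.5, 126 and 174 TPM in DSS + GAA replicates 1, 2, 4 and 5, against 4.80, 3.66, 8.04 and 2.74 TPM in DSS replicates 1, 2, 4 and 5. Like S100g, it was lowest in replicate 1 and highest in replicate 5 of DSS + GAA, an order that a search for like profiles in these libraries favours. Nxpe2 was at 4.11, 35.4, 51.3 and 90.5 TPM in DSS + GAA replicates 1, 2, 4 and 5, with replicate 1 inside the DSS range (1.78 to 8.91 TPM). Gsdmc3, Ces2f and Apol10a belong to families of close copies, which the authors' counting could have split.

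**Figure D4:**
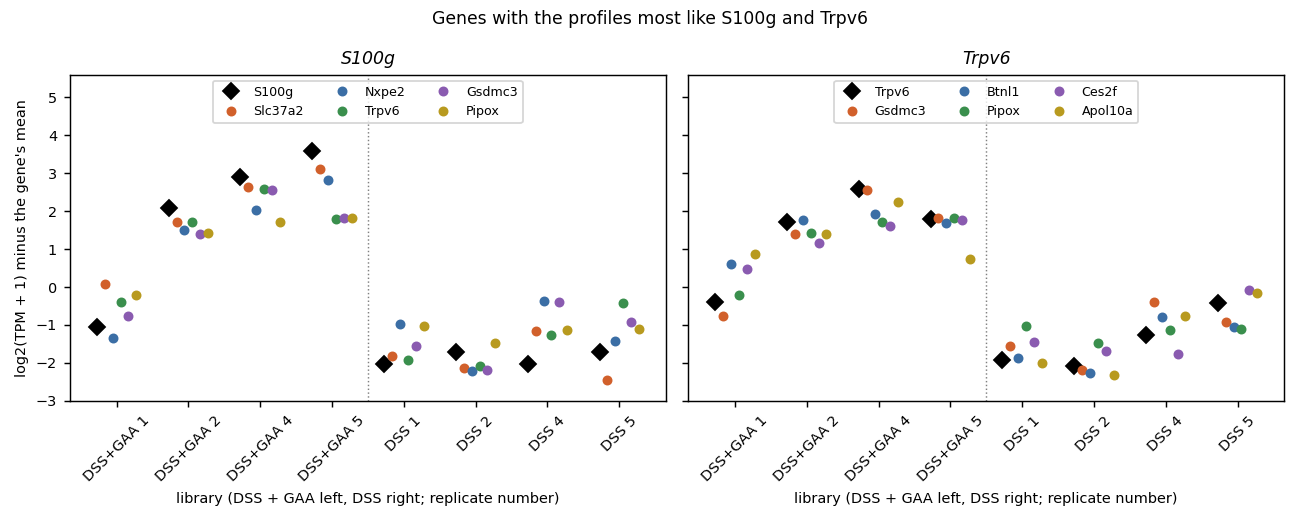
Log2(TPM + 1) minus each gene's mean over the 8 libraries (y axis) for S100g (left panel) and Trpv6 (right panel), each with its 5 nearest genes; DSS + GAA libraries are left of the dotted line and DSS libraries right of it. S100g and its 5 nearest genes are all lowest, among the DSS + GAA libraries, in replicate 1 (1.67 TPM for S100g and 20.5 TPM for Slc37a2). The genes were picked for likeness over these same libraries, which favours such a match.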

How the data were processed

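The authors deposited TPM values of 18262 genes in the 8 libraries. The submitters' processing notes name Trimmomatic, HISAT2, featureCounts, Subread and edgeR among others, with build mm10 and no roles or versions. Per the labels' protocols, polyadenylated RNA was selected and sequenced in paired ends; strandedness is not stated there. The deposited log2 fold change is quoted for 2 genes, and the deposited p-value and false discovery rate, whose test is not given, were not used. Without read totals, no counting interval could be given.

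Members and gene lists were chosen with earlier results of these data known. The 14217 genes that reached 1 TPM in 4 or more libraries (4045 did not) were fitted with limma 3.58.1 (R 4.3.3) on log2(TPM + 1), with group as the sole term, variance trend and robust empirical Bayes; p-values are two-sided and Benjamini-Hochberg adjusted over all tested genes. Fold changes on this scale understate changes of low genes. The script was checked on simulated data. Named genes are all members; per pathway list, up to 6 that passed with the smallest p, or else 3; and 5 nearest profiles for S100g and Trpv6. Genes outside this rule are marked or only illustrate a list. Alternatives were 3 scalings (trimmed mean of log ratios, quantile, median), 2 pseudocounts, 2 filters, empirical Bayes settings, array weights, a replicate block, and leaving out each library with the tested genes kept. The labels do not state that libraries are separate animals, so p-values reflect only the variation among these samples, which may be technical. Some listed genes that count in the totals are not reported here by name. Of the listed genes, Cyp24a1, Cyp3a11, Gc and Hoxc10 were not analysed here.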

Additional observations from a re-analysis of the deposited data

Results flagged for a closer look

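Of 78 sets of 4 libraries examined (each named gene in each group), 4 held a library that stood apart from the other three by more than Dixon's 95% limit, about as many as chance gives (1 in 20), and 0 concerned S100g, Trpv6, Vdr, Atp2b1, Rxra, Cyp27b1 or Casr. Calcrl was at 71.6 TPM in DSS replicate 1, against 48.3 to 48.9 TPM in the other DSS libraries. Dhcr7 was at 26.2 TPM in DSS replicate 4, against 15.8 to 17.4 TPM in the others. Ces2f was at 14.5 TPM in DSS replicate 5, against 3.82 to 5.00 TPM in the others. Ncoa2 was at 14.9 TPM in DSS + GAA replicate 2, against 15.9 to 16.0 TPM in the others.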

How the results depend on the processing

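Calls of the 8 genes across alternatives are a description, since the genes were chosen on this contrast. A filter of at least 5 TPM in at least 4 libraries left S100g and Trpv6 untested, so 1 of the 8 genes was called higher; trimmed mean scaling and median centring called 4 (with Rxra), and array quality weights called 1 lower (Atp2b1). Leaving out each library gave 3 of them higher throughout and 0 to 1 lower. The log2 fold change of S100g followed the pseudocount, at 4.91 with 0.1 and 2.33 with 5, and that of Trpv6 likewise (3.62 and 1.73). Other pathway genes numbered 15 higher and 5 lower under trimmed mean scaling and median centring, 9 lower under quantile normalization, and 3 to 13 higher and 8 to 20 lower when each library was left out. Over all tested genes (847 higher, 4006 lower), trimmed mean scaling gave 1979 and 1647, quantile normalization 1677 and 1601, median centring 2165 and 1308, and leaving out each library 388 to 1291 higher and 1944 to 4468 lower. Per epithelial marker, Rxra had a ratio of 0.772 where TPM gave 1.103. The shift comes from the marker sum in the divisor, at 16283 to 17664 TPM in DSS + GAA and 10514 to 13335 TPM in DSS. The replicate block gave 3 members higher and 0 lower, 7 other pathway genes higher and 16 lower, and 679 higher and 3340 lower over all genes. Deviations of same-numbered libraries were weakly correlated (0.18, -0.11, 0.15 and -0.03 for numbers 1, 2, 4 and 5). The highest correlation with another number was 0.07, 0.08, 0.15 and 0.06 in the same order. Numbers 1 and 4 thus reached or exceeded it, and numbers 2 and 5 did not. The check does not settle whether the numbers are pairs, and the main fit did not take them as pairs. TPM without depth limits what can be said of Cyp27b1 and Casr.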
